A study of Mus musculus with 12 samples.

Results

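The genes described here encode potassium channel subunits: 77 genes of the 30239 in the deposited table, read by poly(A) RNA sequencing in the tibialis anterior, which lies along the shin and is built mostly of fast fibres. They are all the genes whose symbol starts with Kcn, at least one further letter and a digit, and that had at least 100 counts in total over the 12 libraries. The same pattern takes 93 genes at any total, and the other 16 had reads but fewer than 100. By role, 15 members are pore-forming subunits of the Kv1 to Kv4 voltage-gated families, 9 are silent Kv subunits, 5 belong to the KCNQ (Kv7) family and 4 to the ether-a-go-go family. Another 13 are accessory subunits, 12 are inward rectifiers, 10 are 2-pore-domain channels and 8 are channels opened by intracellular calcium or sodium, or their relatives. The last, Kcnq1ot1, is an RNA antisense to Kcnq1 and encodes no channel.

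The mice were 6 months old and untreated, and fell into 3 genotypes with 4 libraries each. Wild-type (WT) mice have an intact dystrophin gene, Dmd. The mdx mouse is the standard model of Duchenne muscular dystrophy and carries a nonsense mutation in Dmd. The name DMD-Null states a loss of the gene, but how it was disrupted, and the strain and sex of every group, are not in the labels. Whether the numbered replicates are separate animals is not stated, and p-values then describe only how much these libraries vary.

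Potassium channels let potassium leave or enter a cell along its gradient and so set how far the membrane is polarized and how fast it recovers after an action potential. In skeletal muscle, inward rectifiers hold the resting potential and recover potassium from the T-tubules, ATP-sensitive channels open when the fibre runs short of energy, and Kv channels end the action potential. Calcium-activated channels of small conductance are sparse in innervated adult fibres and appear in denervated and myotonic muscle. Several 2-pore-domain channels and Kcnn4 are known mainly from immune cells, epithelia and other cells outside the fibres.

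In both dystrophin mutants the silent subunit gene Kcng4 fell, and Kcnn3, Kcnk13, Kcnk5 and the rare Kcnu1 rose. The DMD-Null call of Kcnk5 was weak, and held in 2 of 8 fits with 1 library left out. The WT mean of Kcng4 was 4.03 times that of mdx and 4.68 times that of DMD-Null. The mean of Kcnn3 was 3.82 times WT in mdx and 4.21 times WT in DMD-Null, and that of Kcnk13 was 4.46 and 5.09 times WT. Kcna7, Kcnc4 and Kcnc1, which are among the most abundant channel transcripts of this muscle, did not pass the test against WT in either mutant. Kcnj11, which ranks with them, fell in mdx, a call that also held in 2 of 8 fits with 1 library left out. No member passed the test between the mutants.

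Total counts per library were 60693078 to 68054627, and the members together took 0.0861% to 0.0975% of them. Dmd had 542, 3597, 412 and 2446 counts in WT 1 to 4, from 713 to 1254 in mdx and from 71 to 164 among the DMD-Null libraries. WT 1 and WT 3 thus lay below mdx in counts. In CPM (counts scaled to library size) WT 3, at 9.506, still did, while WT 1, at 11.92, lay within the mdx range of 10.25 to 17.08. Dmd did not pass between mdx and WT (edgeR adjusted p = 0.15). WT 1 and WT 3 stood apart from the other WT libraries. The 8 markers of muscle fibres summed to 305800 and 285500 CPM in these, and to 85280 to 140800 in the others. All 8 had a log2 fold change below 0 in both mutants, with medians of -1.11 in mdx and -1.19 in DMD-Null, while without WT 1 and WT 3, or with library totals alone, 2 of the 8 lay above 0. The medians without WT 1 and WT 3 were -0.30 and -0.37. Mb fell in both mutants and Myh1 in mdx. The marker medians were thus below 0 together with the values of Kcng4, Kcnj11, Kcnn1 and Scn4a, and their part in those results was not tested. Spearman's rho across genes between GC content and the ratio to the mean library was 0.532 and 0.502 in these, 0.371 in DMD-Null 4 and -0.431 to -0.036 elsewhere. The TMM factors, which scale CPM to the bulk of genes, were 0.7212 and 0.6985 in WT 1 and WT 3 and 0.9368 to 1.185 in the others. Liver markers summed to 501 to 716 CPM in WT, from 39.7 to 83.3 in mdx and from 0.139 to 116 among the DMD-Null libraries. Lung markers summed to 11.3 to 13.7 CPM in mdx and to at most 0.5105 in the other libraries. What part the liver and lung RNA played in the results on the channel genes was not tested.

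Levels of different genes are compared here in FPKM, the authors' values scaled to gene length and library size, as means over the 12 libraries. A few channel genes made up most of the channel RNA. Kcna7 (the voltage-gated Kv1.7) had the highest level at 45.4 FPKM, followed by Kcnj11 (Kir6.2, the pore of the muscle ATP-sensitive channel) at 34.1 and Kcnc4 (Kv3.4) at 32.8. Kcnc1 (Kv3.1) at 12.3, Kcng4 at 10.95 and Kcnj12 (the strong inward rectifier Kir2.2) at 10.9 came next. These 6 were the members with at least 10 FPKM. Another 11, among them Kcnj8 (Kir6.1, the vascular ATP-sensitive pore) at 8.53, lay between 1 and 10, and 60 lay below 1, of which 18 were below 0.1. The 4 highest members, taken anew in each library, held 60.4% to 65.1% of the summed FPKM of all members there.

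**Figure D1:**
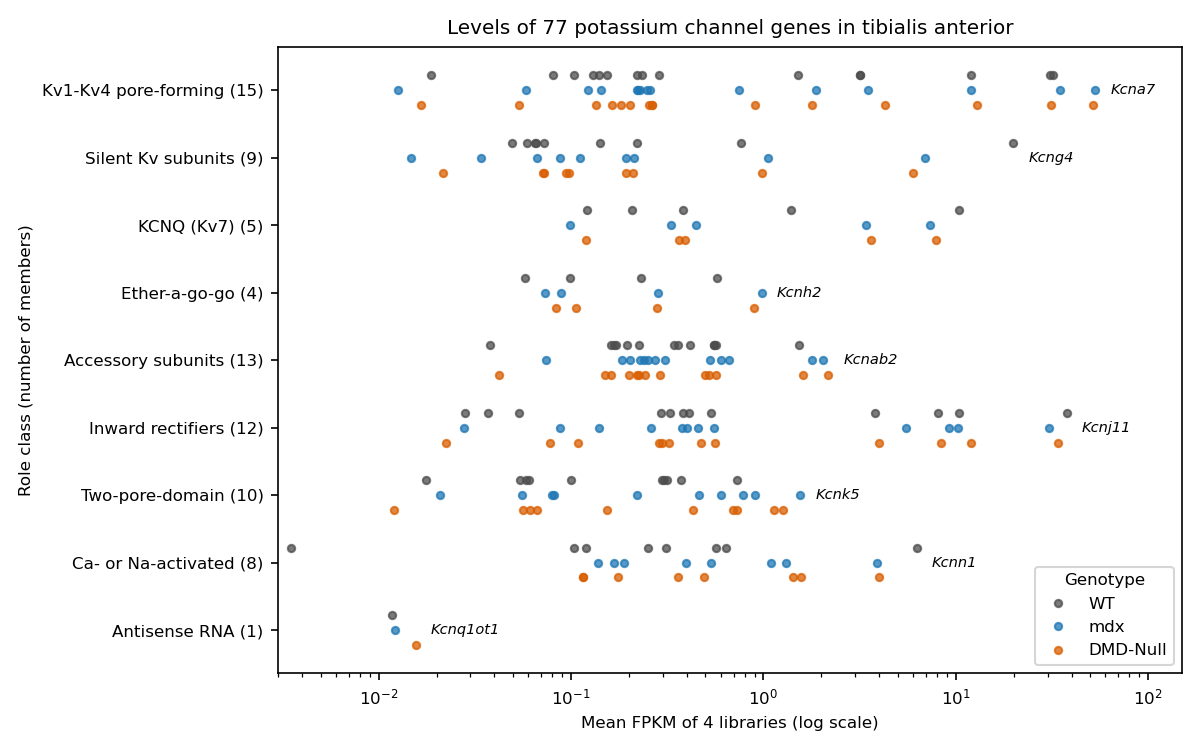
Mean FPKM (log scale, 4 libraries per point) of each of the 77 members in WT, mdx and DMD-Null, by role class with the number of members in brackets; names mark the member with the highest mean over the 12 libraries in 8 of the 9 classes. Few members in any class lie above 10 FPKM, and the WT point of Kcng4 lies to the right of both mutant points.

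The roles held different shares of the channel RNA by genotype. The 9 silent subunits took 9.7% to 12.4% of the members' summed FPKM in WT, from 3.8% to 4.75% in mdx and from 3.38% to 4.84% among the DMD-Null libraries, and Kcng4 made up most of this class. The share of the Kv1 to Kv4 pores was 37.9% to 47.2% in WT, from 51.1% to 52.8% in mdx and from 48.7% to 53.3% among the DMD-Null libraries. The lowest were WT 1 and WT 3, at 39.0% and 37.9%. The 2-pore-domain channels held 1.01% to 1.32% in WT, from 2.03% to 2.57% in mdx and from 1.99% to 2.53% among the DMD-Null libraries. In these 3 classes no WT library overlapped a mutant one. Shares are parts of a whole, so a lower share of any class raises the rest. A higher share of the Kv1 to Kv4 pores thus does not by itself show a rise of their genes. The shares also rest on FPKM, which are not scaled by TMM factors. In the edgeR fits below, which use TMM factors, 0 of these 15 rose, and 12 in mdx and 11 in DMD-Null had log2 fold changes below 0. Kcna7, the most abundant of them, lay above 0 in both mutants without passing. The shares of the KCNQ class overlapped, at 4.84% to 8.88% in WT, from 5.33% to 6.09% in mdx and from 5.64% to 6.34% among the DMD-Null libraries.

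Each comparison was then tested in its own 8 libraries with edgeR's quasi-likelihood test over 18588 genes, and a gene passed at a Benjamini-Hochberg adjusted p under 0.05. Against WT, 14 of the 77 members passed in mdx, 7 higher and 7 lower. That is 18.2% of members, against 17.2% of all tested genes, of which 9.08% were higher and 8.17% lower. In DMD-Null 12 members passed, 6 higher and 6 lower, or 15.6% against 10.1% of all genes (5.9% higher and 4.19% lower). The CPM of 21 members (27.3%, against 27.6% of all tested genes) did not overlap between WT and mdx, 8 higher and 13 lower, where all genes gave 15.1% and 12.5%. Between WT and DMD-Null 19 members (24.7%, against 20.5%) did not overlap, 7 higher and 12 lower, where all genes gave 11.3% and 9.14%. Both comparisons use the same WT libraries, so neither is an independent repeat of the other. The median log2 fold change of the members was -0.27 in mdx and -0.40 in DMD-Null, beside 0.03 and 0.02 over all genes, and both signs turned with library totals alone in place of TMM factors (0.11 and 0.03). That scaling moved the median of all genes to 0.413 and 0.423 and split the members that passed into 10 higher and 4 lower in mdx and 6 higher and 2 lower in DMD-Null. In bulk tissue, fewer cells of a type and less RNA per cell cannot be told apart.

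The counts of members moved with single libraries, and so did those of all genes, which were 3206 in mdx and 1875 in DMD-Null with every library. In mdx, 9 members (1999 genes in all) passed without WT 3 and 7 to 8 (1580 to 1920) without any 1 of the 4 mdx libraries. In DMD-Null, 7 members (988 genes) passed without WT 3 and 6 without DMD-Null 2 or DMD-Null 3 (990 and 754 genes). Without WT 1 and WT 3 together, 19 members passed in mdx, among them 12 of the 14, and 12 passed in DMD-Null, among them 10 of the 12.

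**Figure D2:**
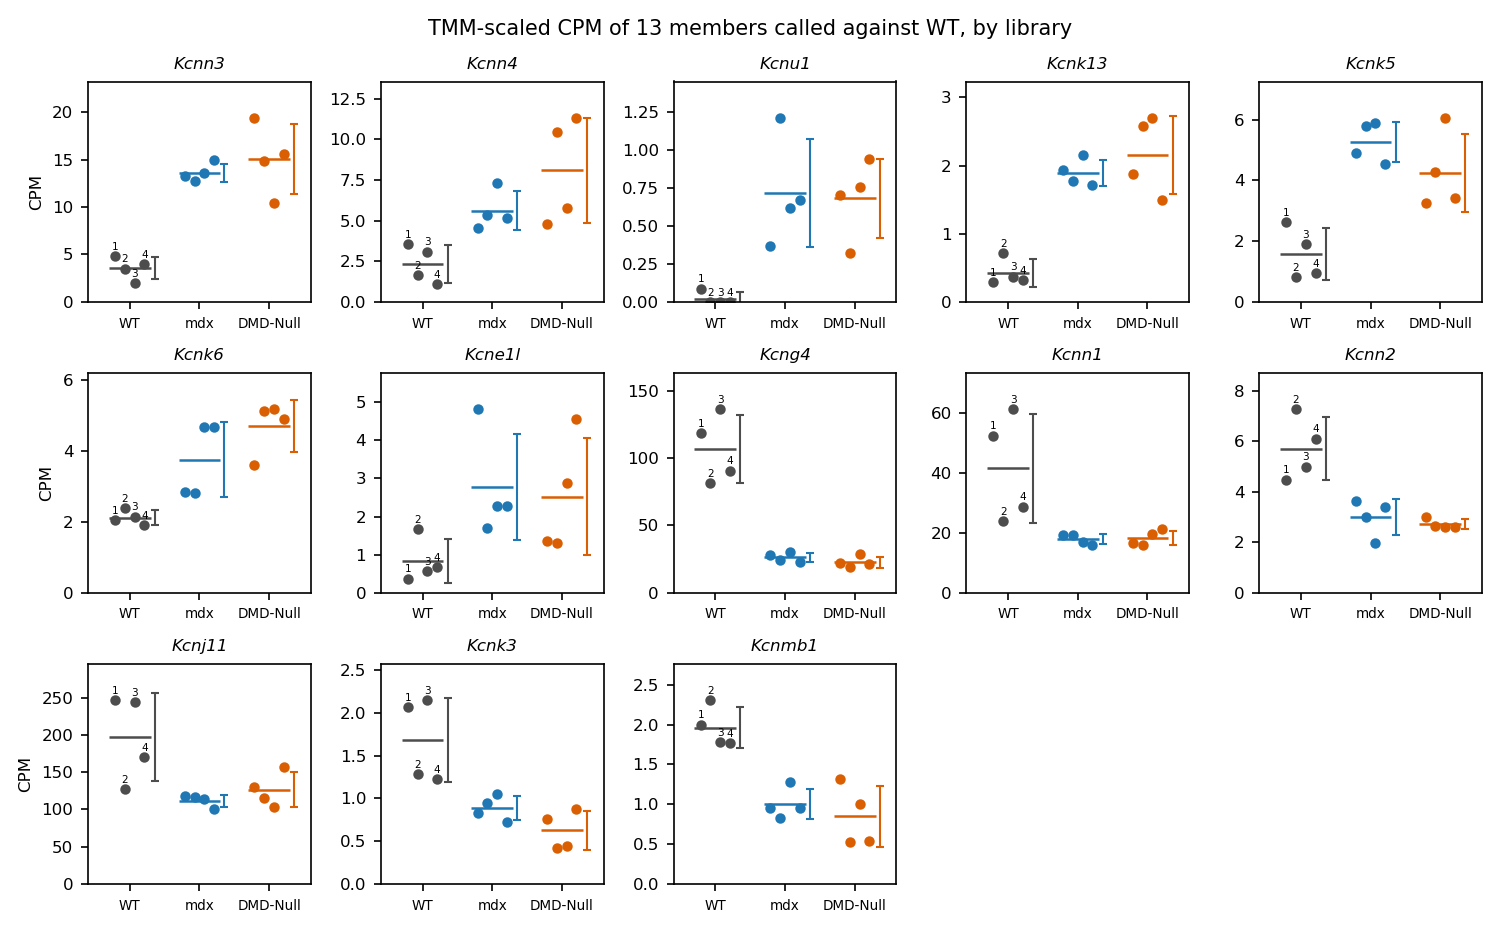
TMM-scaled CPM of 13 of the 15 members that passed against WT in mdx, DMD-Null or both, by library (points), with the group mean (line) and SD (bar), n = 4 per group; WT replicates are numbered. In Kcnn3, Kcnk13 and Kcng4 every mutant library lies on the same side of all 4 WT libraries.

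The promoters of Kcng4, Kcnn3 and Kcnk13 are shown because these genes kept their calls in both mutants in every alternative fit that held them (Kcnk13 fell short of the FPKM filter) and have an entry in the RefSeq promoter table (GRCm38.p6). Each sequence is the 250 bases before the start, 5′ to 3′ on the gene's strand. Capitals mark CAGCTG, an E-box of the kind bound by myogenic regulators, and GAGGAA, the core bound by the myeloid factor PU.1, searched on both strands.
Kcng4, chr8:119635681-119635930, minus strand: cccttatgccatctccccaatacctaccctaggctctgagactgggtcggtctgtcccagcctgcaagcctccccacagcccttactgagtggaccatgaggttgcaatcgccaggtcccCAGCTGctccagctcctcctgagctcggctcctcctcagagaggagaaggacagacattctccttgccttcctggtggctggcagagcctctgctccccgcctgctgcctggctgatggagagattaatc
Kcnn3, chr3:89519914-89520163, plus strand: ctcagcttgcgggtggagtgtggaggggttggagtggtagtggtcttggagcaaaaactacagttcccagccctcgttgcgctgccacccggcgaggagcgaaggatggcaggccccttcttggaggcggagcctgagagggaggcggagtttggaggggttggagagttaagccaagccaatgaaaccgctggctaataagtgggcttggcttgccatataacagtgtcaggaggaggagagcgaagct
Kcnk13, chr12:99964249-99964498, plus strand: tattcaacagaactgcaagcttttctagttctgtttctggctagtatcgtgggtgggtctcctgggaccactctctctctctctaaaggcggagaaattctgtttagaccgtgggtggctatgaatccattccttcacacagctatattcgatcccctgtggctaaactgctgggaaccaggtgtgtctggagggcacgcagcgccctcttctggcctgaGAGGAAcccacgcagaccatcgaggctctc
The Kcng4 window holds CAGCTG, the Kcnk13 window holds GAGGAA and the Kcnn3 window holds neither. Of 32851 mouse promoters of this length, 13.0% hold CAGCTG and 23.3% hold GAGGAA. Among the 54 members with an entry, 15 (27.8%) hold CAGCTG and 16 (29.6%) hold GAGGAA. Of the 5 among them that rose, 1 holds CAGCTG and 1 holds GAGGAA. Of the 3 that fell, 2 hold CAGCTG and 0 hold GAGGAA. A match is a run of letters and is not shown to be a binding site.

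Kcng4 (ENSMUSG00000045246, chromosome 8 from 119623854 to 119635680, minus strand) encodes Kv6.4, a silent subunit that forms no channel alone and joins Kv2 pores, whose gating it changes. Kcng4 stood at 118, 81.7, 136 and 90.8 CPM in WT 1 to 4, at 27.9, 24.5, 30.6 and 22.8 in mdx 1 to 4 and at 21.9, 19.1, 28.7 and 21.5 in DMD-Null 1 to 4. The lowest WT library was thus well above the highest mutant one. Kcng4 fell by 1.98 on the log2 scale in mdx (SE 0.198, edgeR adjusted p = 0.000342) and by 2.21 in DMD-Null (SE 0.213, edgeR adjusted p = 0.00101), and later fold changes are on the same scale. Without WT 1 and WT 3 the changes were -1.74 and -1.96. The other 8 silent subunits had at most the 0.938 FPKM of Kcnf1, and none of them passed against WT.

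Of the 15 Kv1 to Kv4 pores, 2 fell in each mutant, and the most abundant, Kcna7, Kcnc4 and Kcnc1, did not pass. Kcna7 stood at 62.2, 120.0, 64.2 and 107 CPM in the WT libraries, 124, 107, 110.0 and 122 in mdx and 128, 106, 110.3 and 109 in DMD-Null. WT 1 and WT 3 lay far below every other library, and WT 2 and WT 4 lay among the mutants. Its log2 fold changes of 0.41 in mdx (SE 0.251, edgeR adjusted p = 0.26) and, for DMD-Null, of 0.36 (SE 0.253, edgeR adjusted p = 0.353) came to 0.00 and -0.04 without WT 1 and WT 3. Kcnc4, the fast-inactivating Kv3.4, averaged 173 ± 31.8 CPM in the WT libraries, 133 ± 14.2 in mdx and 121 ± 10.4 in DMD-Null (mean ± SD, n = 4), with edgeR adjusted p = 0.175 and 0.0872. Kcnc1 averaged 160.3 ± 38.5, 113 ± 8.11 and 123 ± 29.2 CPM, with edgeR adjusted p = 0.0998 and 0.302.

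None of the 5 KCNQ genes, which encode slow voltage-gated channels active near the resting potential, passed against WT by edgeR, although 4 had an unadjusted p under 0.05 in mdx and 2 in DMD-Null. Of all 18588 tested genes, 6717 had such a p in mdx and 5515 in DMD-Null, the background for each such count against WT below. In Kcnq5 (Kv7.5) WT 1 and WT 3 were the lowest libraries. Kcnq5 stood at 7.54, 20.7, 9.32 and 18.04 CPM in the WT libraries, 27.2, 23.5, 25.2 and 28.9 in mdx and 35.2, 26.6, 27.4 and 22.6 in DMD-Null. Every mutant library was above the highest WT library, yet the log2 fold changes of 0.93 (SE 0.328, edgeR adjusted p = 0.0783) and 1.0 (SE 0.343, edgeR adjusted p = 0.0914) did not pass. The 4 ether-a-go-go genes did not pass either, with 1 at an unadjusted p under 0.05 in mdx and 0 in DMD-Null. Kcnh2, the HERG channel studied in muscle atrophy, averaged 4.00 ± 1.31 CPM in the WT libraries, 4.76 ± 0.812 in mdx and 4.43 ± 1.59 in DMD-Null (mean ± SD, n = 4). Kcnh2 missed the threshold in mdx (0.29, edgeR adjusted p = 0.415) but passed there with offsets for GC content (0.75, edgeR adjusted p = 0.015), with library totals alone (0.72, edgeR adjusted p = 0.047) and in both limma fits (limma adjusted p = 0.0299 and 0.0398).

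The split between the WT libraries touched 13 members, in which WT 1 and WT 3 both lay at least 1.5-fold to the same side of WT 2 and WT 4. They were both lower in 4 members (5.19%, against 18.7% of all tested genes) and both higher in 9 (11.7%, against 16.8%). Of the members that passed against WT, Kcnn1, Kcnk5, Kcnk3 and Kcnn4 were among the 9. In those 4 the WT mean moves with which WT libraries are used.

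**Figure D3:**
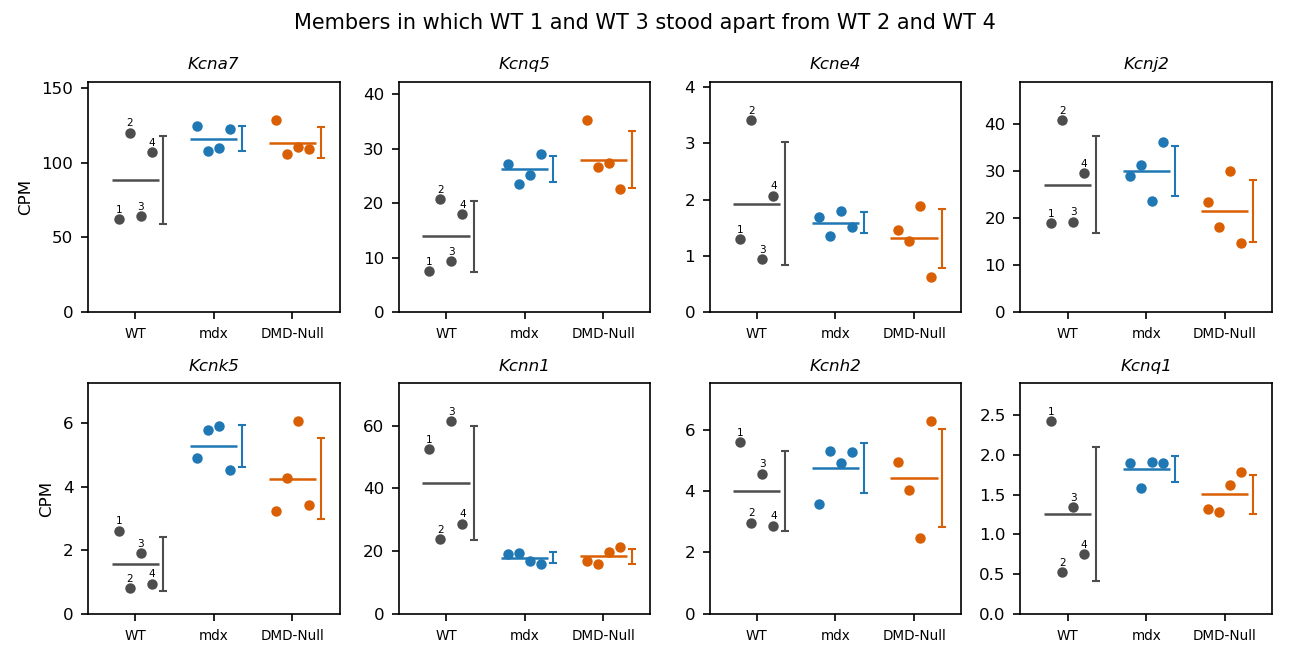
TMM-scaled CPM by library (points; line, group mean; bar, SD; n = 4 per group) of 8 of the 13 members in which WT 1 and WT 3 both lay at least 1.5-fold to one side of WT 2 and WT 4, with WT replicates numbered. In the upper row WT 1 and WT 3 are the low pair and in the lower row the high pair; in Kcna7 they stand at 62.2 and 64.2 beside 120.0 and 107.

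Of the 13 accessory subunits, 2 passed in mdx and none by edgeR in DMD-Null, where 3 had an unadjusted p under 0.05. Kcne1l (also called Kcne5), a single-span subunit that lowers KCNQ1 currents, stood at 0.374, 1.67, 0.577 and 0.681 CPM in the WT libraries, 4.81, 1.71, 2.27 and 2.27 in mdx and 1.35, 1.31, 2.87 and 4.54 in DMD-Null. WT 2 almost reached mdx 2, and it lay above DMD-Null 1 and DMD-Null 2. Kcne1l rose by 1.74 in mdx (SE 0.503, edgeR adjusted p = 0.0417), and the value of 1.60 in DMD-Null did not pass (SE 0.567, edgeR adjusted p = 0.0997). In DMD-Null it passed with all 12 libraries in 1 model (edgeR adjusted p = 0.0489) and without WT 2 (0.0209). It also passed there by DESeq2 (adjusted p = 0.0337) and in both limma fits (limma adjusted p = 0.0432 and 0.0379). The call in mdx was lost without any 1 of 7 of the 8 libraries, WT 2 being the exception (edgeR adjusted p = 0.0554 to 0.123), and without WT 1 and WT 3 (0.115).

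Kcnmb1 encodes the beta1 subunit that raises the calcium sensitivity of the large-conductance channel in smooth muscle. Kcnmb1 stood at 2.001, 2.31, 1.78 and 1.77 CPM in the WT libraries, 0.954, 0.834, 1.28 and 0.953 in mdx and 1.32, 0.528, 1.001 and 0.537 in DMD-Null. All mutant libraries were below all WT libraries. Kcnmb1 fell by 0.94 in mdx (SE 0.236, edgeR adjusted p = 0.026), while -1.21 in DMD-Null missed the threshold (SE 0.342, edgeR adjusted p = 0.0547). It passed there with all 12 libraries in 1 model, median-of-ratios factors, GC offsets or without DMD-Null 1 (edgeR adjusted p = 0.0164 to 0.0479) and by DESeq2 (adjusted p = 0.00563). With library totals alone the mdx call ended (edgeR adjusted p = 0.151), as it did without mdx 1, mdx 2 or mdx 4 (edgeR adjusted p = 0.0743 to 0.0811). Kcnmb1 lies within Kcnip1 on the other strand, which had 287 counts to its 935, and no source used here says whether reads were counted by strand.

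Some smooth muscle and pericyte markers moved with Kcnmb1. Of 6, the 3 genes Myh11, Tagln and Cnn1 fell in each mutant (in DMD-Null 1 of 6 fell with library totals alone or without WT 1 and WT 3). Acta2 and Cspg4 lay below 0 without passing. Rgs5 lay the other way without passing, at 0.23 in mdx and 0.19 in DMD-Null (edgeR adjusted p = 0.512 and 0.609). No marker was at 0 in any library. The sum of all 6 markers was 648 to 766 CPM in WT, from 540 to 606 in mdx and from 498 to 611 among the DMD-Null libraries. Their part in the result was not tested. Kcnma1, the pore of the large-conductance channel that Kcnmb1 serves, averaged 14.3 ± 4.75 CPM in the WT libraries, 9.01 ± 1.46 in mdx and 8.40 ± 0.614 in DMD-Null (mean ± SD, n = 4), and did not pass in either (edgeR adjusted p = 0.116 and 0.0883). Kcnab2, the most abundant accessory gene and a cytoplasmic beta subunit of Kv1 channels, averaged 14.8 ± 3.12, 14.3 ± 1.22 and 15.2 ± 2.15 CPM. Its log2 fold changes were -0.02 and 0.05 (edgeR adjusted p = 0.952 and 0.877).

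Of the 12 inward rectifiers, 1 passed in mdx and none by edgeR in DMD-Null, where 2 had an unadjusted p under 0.05. Kcnj11 stood at 246, 127, 244 and 170.4 CPM in the WT libraries, 118, 116, 113 and 100 in mdx and 131, 115, 104 and 157 in DMD-Null. WT 2 was the lowest of WT, just above mdx, and lay within the range of DMD-Null. Kcnj11 fell by 0.78 in mdx (SE 0.214, edgeR adjusted p = 0.0349), while the value of -0.62 in DMD-Null did not pass (SE 0.236, edgeR adjusted p = 0.119). In DMD-Null it passed with all 12 libraries in 1 model (edgeR adjusted p = 0.0456) and without WT 2 (0.0278). The mdx call ended with library totals alone (edgeR adjusted p = 0.13) and without WT 1, WT 3 or any 1 mdx library (edgeR adjusted p = 0.0764 to 0.109). Without WT 1 and WT 3 together it held at -0.44 (edgeR adjusted p = 0.048). Kcnj8, Kcnj12 and Kcnj2 (Kir2.1, the strong rectifier of the resting potential) did not pass in either mutant.

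Of the 10 2-pore-domain channels, which carry leak currents, 3 rose in mdx, and 3 rose and 1 fell in DMD-Null. Kcnk13 encodes THIK-1, a leak channel known from microglia and macrophages. Kcnk13 stood at 0.286, 0.718, 0.369 and 0.323 CPM in the WT libraries, 1.94, 1.77, 2.15 and 1.72 in mdx and 1.88, 2.57, 2.69 and 1.49 in DMD-Null. Every mutant library was well above the highest WT library. Kcnk13 rose by 2.17 in mdx (SE 0.337, edgeR adjusted p = 0.00278) and by 2.34 in DMD-Null (SE 0.379, edgeR adjusted p = 0.00669), and both calls held in every alternative fit other than the FPKM filter, which it did not pass.

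Kcnk6 encodes TWIK-2, a potassium efflux channel of macrophages. Kcnk6 stood at 2.04, 2.39, 2.15 and 1.91 CPM in the WT libraries, 2.85, 2.82, 4.68 and 4.67 in mdx and 3.61, 5.12, 5.17 and 4.90 in DMD-Null. WT was tight and below both mutants, and mdx fell into a low and a high pair. Kcnk6 rose by 0.85 in mdx (SE 0.244, edgeR adjusted p = 0.0411) and by 1.16 in DMD-Null (SE 0.207, edgeR adjusted p = 0.00987). In mdx the call was lost without any 1 library other than WT 2 or mdx 2 (edgeR adjusted p = 0.0528 to 0.128) and without WT 1 and WT 3 (0.091), while the DMD-Null call held without any 1 library.

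Kcnk5 (TASK-2, an acid-sensitive leak channel of epithelia and lymphocytes) stood at 2.62, 0.820, 1.92 and 0.953 CPM in the WT libraries, 4.89, 5.78, 5.89 and 4.53 in mdx and 3.25, 4.27, 6.05 and 3.44 in DMD-Null. No mutant library overlapped WT. Kcnk5 rose by 1.79 in mdx (SE 0.350, edgeR adjusted p = 0.00851), a call that held in every alternative fit, and by 1.46 in DMD-Null (SE 0.390, edgeR adjusted p = 0.045). The DMD-Null call ended with median-of-ratios factors (edgeR adjusted p = 0.0557) and without any 1 library other than WT 1 or WT 2 (edgeR adjusted p = 0.0674 to 0.137).

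Kcnk3 (TASK-1, a leak channel of vascular smooth muscle) stood at 2.07, 1.28, 2.15 and 1.23 CPM in the WT libraries, 0.831, 0.949, 1.05 and 0.722 in mdx and 0.764, 0.417, 0.447 and 0.875 in DMD-Null. All mutant libraries were below WT. Kcnk3 fell by 1.40 in DMD-Null (SE 0.347, edgeR adjusted p = 0.0354), and -0.88 in mdx missed the threshold (SE 0.272, edgeR adjusted p = 0.0521). In mdx it passed with all 12 libraries in 1 model, median-of-ratios factors or without WT 2 or WT 4 (edgeR adjusted p = 0.0262 to 0.049). It also passed there by DESeq2 (adjusted p = 0.0128). Leaving out WT 1 and WT 3 ended the DMD-Null call (edgeR adjusted p = 0.149), as did leaving out any 1 library other than WT 2 or DMD-Null 4 (edgeR adjusted p = 0.0518 to 0.11) or using library totals alone (edgeR adjusted p = 0.057). Of the markers given beside Kcnmb1, Myh11, Tagln and Cnn1 moved the same way and Rgs5 did not. The part of these markers here was not tested either.

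Of the 8 genes of the calcium- or sodium-activated class, 3 rose and 2 fell in each mutant. Kcnn3 (ENSMUSG00000000794, chromosome 3 from 89520164 to 89675132, plus strand) encodes SK3, the small-conductance channel that denervated muscle makes. Kcnn3 stood at 4.82, 3.52, 2.01 and 3.95 CPM in the WT libraries, 13.2, 12.8, 13.6 and 14.98 in mdx and 19.4, 14.8, 10.4 and 15.6 in DMD-Null. The mdx libraries were close together, DMD-Null spread more widely, and both lay far above the highest WT library. Kcnn3 rose by 1.95 in mdx (SE 0.265, edgeR adjusted p = 0.0014) and by 2.08 in DMD-Null (SE 0.305, edgeR adjusted p = 0.0047), and both calls held in every alternative fit.

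The other small-conductance genes, Kcnn1 and Kcnn2, fell. Kcnn1 (SK1) stood at 52.5, 23.9, 61.3 and 28.8 CPM in the WT libraries, 19.2, 19.5, 17.0 and 16.0 in mdx and 16.8, 16.1, 19.6 and 21.2 in DMD-Null. WT 1 and WT 3 were far above WT 2 and WT 4, which lay just above the mutants. Kcnn1 fell by 1.17 in mdx (SE 0.283, edgeR adjusted p = 0.0217) and by 1.15 in DMD-Null (SE 0.292, edgeR adjusted p = 0.0382). Without WT 1 and WT 3 the values were -0.59 (edgeR adjusted p = 0.0134) and -0.56, the latter no longer a call (edgeR adjusted p = 0.0775). The mdx call ended without WT 3 or any 1 mdx library (edgeR adjusted p = 0.0504 to 0.0745), and the DMD-Null call without WT 1, WT 3 or any 1 DMD-Null library (edgeR adjusted p = 0.0649 to 0.113) and with library totals alone (edgeR adjusted p = 0.0719).

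Kcnn2 (SK2) stood at 4.49, 7.28, 5.01 and 6.11 CPM in the WT libraries, 3.64, 2.99, 1.996 and 3.40 in mdx and 2.997, 2.67, 2.62 and 2.62 in DMD-Null. The mutant libraries were all below WT. Kcnn2 fell by 0.91 in mdx (SE 0.255, edgeR adjusted p = 0.0384) and by 1.06 in DMD-Null (SE 0.218, edgeR adjusted p = 0.0173). Both calls ended with library totals alone (edgeR adjusted p = 0.212 and 0.123) and with offsets for GC content (0.105 and 0.056). The mdx call ended without any 1 library other than WT 1 or WT 2 (edgeR adjusted p = 0.0534 to 0.0993), and the DMD-Null call without DMD-Null 2 or DMD-Null 3 (0.0546 and 0.0641).

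Kcnn4 encodes the intermediate-conductance channel of lymphocytes, macrophages and fibroblasts. Kcnn4 stood at 3.56, 1.64, 3.09 and 1.09 CPM in the WT libraries, 4.55, 5.36, 7.32 and 5.15 in mdx and 4.82, 10.4, 5.79 and 11.3 in DMD-Null. No mutant library overlapped WT, and DMD-Null fell into a low and a high pair. Kcnn4 rose by 1.3 in mdx (SE 0.352, edgeR adjusted p = 0.0334) and by 1.82 in DMD-Null (SE 0.423, edgeR adjusted p = 0.0277). The mdx call ended without any 1 mdx library (edgeR adjusted p = 0.0604 to 0.0979), and the DMD-Null call without WT 3, WT 4, DMD-Null 2, DMD-Null 3 or DMD-Null 4 (edgeR adjusted p = 0.0551 to 0.0761).

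Markers of other cells moved with Kcnk13, Kcnk6, Kcnk5, Kcnn3 and Kcnn4. Of 7 macrophage markers, 6 rose in mdx and 5 in DMD-Null, none was at 0 in any library, and their sum was 41.4 to 95.6 CPM in WT, from 232 to 273 in mdx and from 133 to 282 among the DMD-Null libraries. Of 4 markers of fibro-adipogenic progenitors, the collagen-making cells of muscle, 3 rose in each, with none at 0 and sums of 209 to 565, 1072 to 1295 and 950.1 to 1140.0 CPM. Of 5 markers of regenerating fibres, 4 rose in each, with Mymk and Mymx at 0 in some libraries. The fifth, Myh8, held most of their sum in WT and lay the other way without passing, at a mean of 544 CPM in the WT libraries, 215 in mdx and 189 in DMD-Null (log2 fold changes -1.300 and -1.496, edgeR adjusted p = 0.072 and 0.0778), and the sums were 181 to 968, 314 to 464 and 237 to 424 CPM. Of 4 T-cell markers tested, 1 rose in mdx and none by edgeR in DMD-Null, where 1 had an unadjusted p under 0.05; Cd3g and Cd8a were at 0 in some libraries, and the sums were 0.646 to 1.14, 1.88 to 3.65 and 1.48 to 2.18 CPM. Their part in the results on the channel genes was not tested.

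Kcnu1 (ENSMUSG00000031576, chromosome 8 from 25849623 to 25937939, plus strand) encodes Slo3, a relative of the large-conductance channel that is known from sperm. Kcnu1 had 4, 0, 0 and 0 counts in WT, 27, 84, 45 and 49 in mdx and 48, 23, 56 and 61 in DMD-Null. Its reads thus lay almost wholly in the mutant libraries. The 3 counts that a reading of 0 allows are 0.0513, 0.0692 and 0.0511 CPM in WT 2, WT 3 and WT 4, and the lowest mutant library stood at 0.320 CPM. Over summed counts, mdx was 36.6 times WT (95% exact interval 14.1 to 135) and DMD-Null 34.7 times WT (13.3 to 129), intervals that cover counting error only. Kcnu1 passed in mdx (edgeR adjusted p = 0.00779) and in DMD-Null (edgeR adjusted p = 0.0145). At 0.188 and 0.176 FPKM in the mutants it was a rare transcript. Its neighbours Ash2l and Hgsnat, 8.84 and 6.51 kb away on the opposite strand, were read in WT with 984 to 1492 and 882 to 1708 counts.

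**Figure D4:**
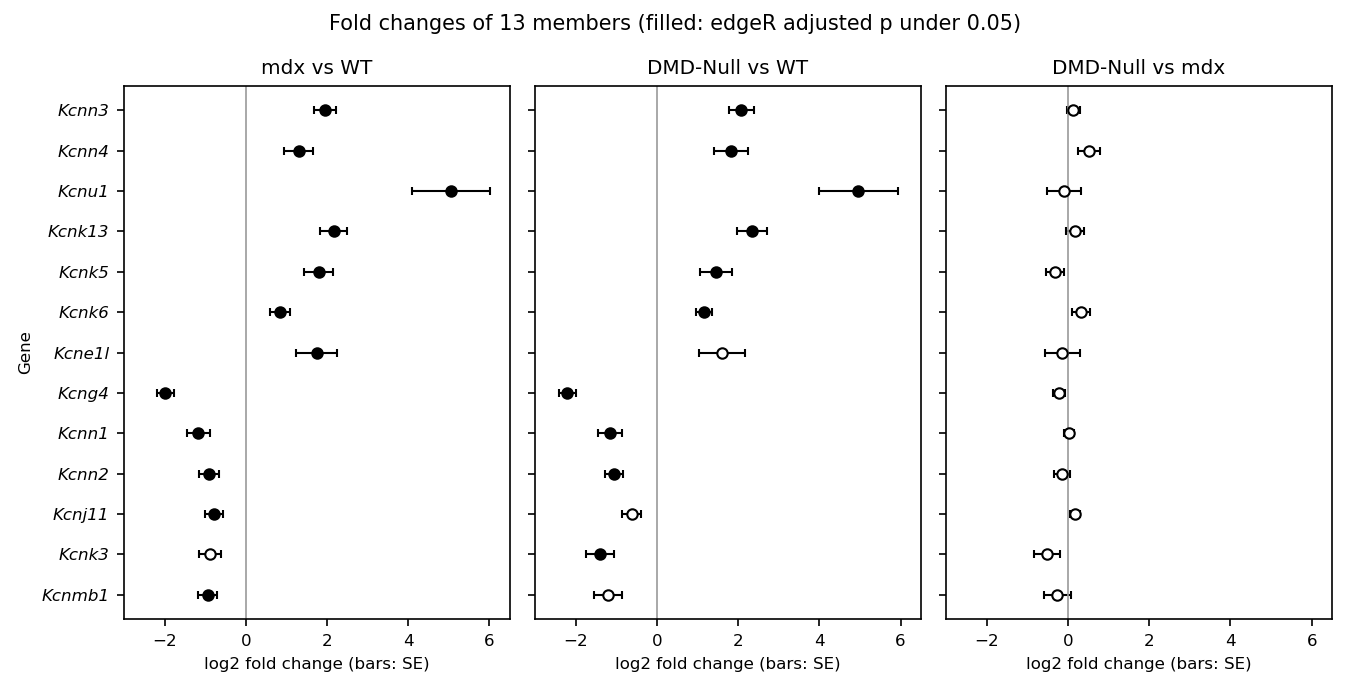
edgeR log2 fold changes (points; bars, SE) of 13 of the 15 members that passed against WT in mdx, DMD-Null or both, for each mutant against WT and, in the third panel, for DMD-Null against mdx, 4 libraries per group; filled points passed at an adjusted p under 0.05. All points of the third panel are open, and Kcnu1, at 5.05 and 4.96, rests on 4 counts in WT, so that its size depends on the prior count.

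DMD-Null was also compared with mdx, 2 genotypes that both affect dystrophin. None of the 77 members passed by edgeR, against 0.0377% (7 genes) of all tested genes, 0.00538% higher and 0.0323% lower. By edgeR 2 of the 77 members had an unadjusted p under 0.05, beside 626 of the 18588 tested genes, and DESeq2 and limma called none. The median log2 fold change of the members was -0.09, and their median SE was 0.26. Kcnj12 at 0.23 (SE 0.089) and Kcnj2 at -0.49 (SE 0.209), both strong inward rectifiers, were the 2.

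Kcnj12 stood at 30.4, 27.7, 29.0 and 25.5 CPM in mdx and 32.1, 31.8, 34.1 and 34.6 in DMD-Null, so the groups did not overlap. Kcnj2 stood at 28.9, 31.3, 23.7 and 36.2 CPM in mdx and 23.4, 18.1, 30 and 14.7 in DMD-Null, and DMD-Null 3 lay among the mdx libraries. The other member without overlap was Kcnip2, a calcium-binding partner of Kv4 pores, which was lower in DMD-Null. Members without overlap were thus 2 of 77, or 2.6%, against 2.29% of all tested genes, of which 1.2% were higher and 1.09% lower. For members that passed against WT, the differences between the mutants were of the size of their errors: 0.13 for Kcnn3 (SE 0.164), 0.18 for Kcnk13 (SE 0.222) and -0.23 for Kcng4 (SE 0.141). A p that misses the threshold does not show that the mutants are alike.

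Genes that work with potassium channels were read in the same fits, from a list of 42 that holds sulfonylurea receptors, channel partners, the sodium-potassium pump, sodium, chloride and cation channels and chloride cotransporters. Of the 40 tested, 3 rose and 5 fell in mdx (20%, against 17.2% of all tested genes), and 2 rose and 4 fell in DMD-Null (15%, against 10.1%). Without WT 2, 16 and 12 passed in place of 8 and 6. In mdx the count was 5 without WT 1, 3 without WT 3 and 1 to 3 without any 1 mdx library, and in DMD-Null it was 2 to 3 without WT 1, WT 3, WT 4, DMD-Null 2, DMD-Null 3 or DMD-Null 4. Atp1b3, a beta chain of the pump, was at 0.81 on the log2 scale in mdx and passed, but not without WT 1, WT 3 or any 1 mdx library (edgeR adjusted p = 0.0666 to 0.0887). Fxyd7, a regulator of the pump, passed in DMD-Null at -1.43, but not without WT 1, WT 3, DMD-Null 2, DMD-Null 3 or DMD-Null 4 (edgeR adjusted p = 0.0647 to 0.0906). Scn4b, a sodium channel beta subunit, passed in DMD-Null at -0.55. That call ended with library totals alone (-0.12, edgeR adjusted p = 0.569), with GC offsets (-0.33, edgeR adjusted p = 0.175) and without any 1 library other than WT 2 (edgeR adjusted p = 0.0678 to 0.138). Fxyd5, another regulator, passed in both (0.92 and 1.07), but not without WT 3, WT 4 or any 1 mdx library in mdx (edgeR adjusted p = 0.0593 to 0.123), nor without WT 3, WT 4, DMD-Null 2, DMD-Null 3 or DMD-Null 4 in DMD-Null (edgeR adjusted p = 0.0819 to 0.129). With library totals alone 6 rose and 1 fell in mdx, and 6 rose and 2 fell in DMD-Null. Between the mutants 0 passed by edgeR, DESeq2 or limma, and 0 had an unadjusted p under 0.05 by edgeR.

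Abcc8, the sulfonylurea receptor SUR1 that joins the Kcnj11 pore, fell in mdx. Its values were 4.51, 2.67, 4.75 and 4.75 CPM in the WT libraries, 2.15, 2.13, 2.26 and 1.51 in mdx and 2.97, 2.96, 1.84 and 3.27 in DMD-Null. WT 2 lay apart from the other WT libraries and within DMD-Null. Abcc8 fell by 1.02 in mdx (SE 0.245, edgeR adjusted p = 0.0213), a call that ended with library totals alone (edgeR adjusted p = 0.088) and without WT 3 or any 1 mdx library (edgeR adjusted p = 0.0516 to 0.0722). The value of -0.58 in DMD-Null did not pass (SE 0.268, edgeR adjusted p = 0.179), but without WT 2 it did (-0.76, edgeR adjusted p = 0.0499). Abcc9, the receptor SUR2 that joins the same pore in muscle, had the far higher level, 14.55 FPKM beside 0.317 for Abcc8 over the 12 libraries. Abcc9 did not pass in mdx (0.49, SE 0.362, edgeR adjusted p = 0.338) or in DMD-Null (0.38, SE 0.364, edgeR adjusted p = 0.492), and WT 1 and WT 3, at 61.4 and 54.04 CPM, lay below all other libraries.

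Lrrc52, the accessory subunit of Slo3 in sperm, went the other way from Kcnu1. Lrrc52 stood at 1.32, 2.03, 1.68 and 0.681 CPM in the WT libraries, 0.504, 0.101, 0.206 and 0.0953 in mdx and 0.0588, 0.111, 0.311 and 0.123 in DMD-Null. WT 4 was the lowest of WT and still above mdx 1. Lrrc52 fell by 2.61 in mdx (SE 0.579, edgeR adjusted p = 0.0153), which was lost when mdx 3 was left out (edgeR adjusted p = 0.0531), and by 3.20 in DMD-Null (SE 0.554, edgeR adjusted p = 0.00872).

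Scn4a, the adult muscle sodium channel, averaged 477 ± 90.9 CPM in the WT libraries, 277 ± 20.1 in mdx and 283 ± 44.1 in DMD-Null (mean ± SD, n = 4). Scn4a fell by 0.75 in mdx (SE 0.173, edgeR adjusted p = 0.0179) and by 0.74 in DMD-Null (SE 0.194, edgeR adjusted p = 0.0432), and both calls ended with library totals alone (edgeR adjusted p = 0.1 and 0.159). The mdx call ended without mdx 1, mdx 3 or mdx 4 (edgeR adjusted p = 0.0576 to 0.0697), and the DMD-Null call without any 1 library other than WT 2 or DMD-Null 4 (edgeR adjusted p = 0.083 to 0.141).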

How the data were processed

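Total RNA of the tibialis anterior was purified with an Agilent kit, and stranded TruSeq libraries were made from its poly(A) fraction, per the labels' protocols. Per the submitters' processing notes the tools included HISAT2 2.0, StringTie 1.3.4, cutadapt 1.10 and FastQC 0.10.1. The authors deposited un-normalized counts in whole numbers for each gene and library, and FPKM scaled to gene length and library size. No source used here gives how reads were counted or whether by strand. Of the members, 41 overlap another annotated gene, 38 of them one on the opposite strand, so reads of such pairs may be mixed. The notes name GRCm39, yet 99.7% of the genes found in GENCODE vM21 have a start or an end in common with it. Positions are therefore printed as deposited and taken as GRCm38.

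Samples were grouped by the labelled genotype. edgeR 4.0.16 (R 4.3.3) fitted the deposited counts with TMM factors by its quasi-likelihood test in the 8 libraries of each comparison, without covariates, over 18588 genes with at least 100 counts in the 12 libraries. All 77 members pass this filter by their definition. WT libraries spread more than the mutants, which is why no spread was shared over 12 libraries. Adjustment was by Benjamini-Hochberg with a threshold of 0.05, and the SE is the size of the log2 fold change over the square root of F. CPM were scaled by TMM factors over 12 libraries. Counting error is largest in members near the minimum of 100 counts. The test was checked on simulated counts. These were drawn with the same spread in both groups, without the split between the WT libraries or a trend with GC content. The check therefore does not cover those features of the data.

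The members, gene lists, tests and alternatives were chosen with earlier results of these data known. Members past the threshold, the most abundant member of each role and up to 4 partner genes per direction were to be named. Kcnq5, Kcnj12, Kcnj2, Kcnip2, Kcnma1, Kcnc4, Kcnc1, Kcnj8, Kcnf1, Kcnj15, Kcnv2, Kcnk10, Kcnab1, Abcc9 and Myh8 were added after their values were seen. Some genes that these rules name are not reported here, and counts include them. Alternatives were all 12 libraries, FPKM of at least 1 in 4 libraries, no filter, median-of-ratios factors, library totals, DESeq2 1.42.0, limma 3.58.1 on log2(FPKM + 1) and log2(FPKM + 0.1), a replicate block, loess offsets for GC content (span 0.5), and libraries left out.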

Additional observations from a re-analysis of the deposited data

Results flagged for a closer look

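Among the named genes, 87 groups of 4 libraries were looked at and 5 had 1 library far from the other 3, where chance gives about 1 in 20. Kcnn2, the small-conductance channel SK2, stood at 2.997 CPM in DMD-Null 1, above the others at 2.625 to 2.67. Kcnq1ot1, the RNA antisense to Kcnq1, stood at 2.198 CPM in WT 1 and at 1.2 to 1.361 in the other WT libraries. Kcnu1 stood at 0.08794 CPM in WT 1 and had no reads in the other WT libraries. Abcc8, the receptor SUR1, stood at 2.665 CPM in WT 2, below the others at 4.507 to 4.753. Fxyd7, a regulator of the sodium-potassium pump, stood at 0.9109 CPM in DMD-Null 1 and at 0.609 to 0.6446 in the other DMD-Null libraries.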

How the results depend on the processing

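The counts of members that passed moved by over 1.5 times in 3 settings that kept every library. With all 12 libraries in 1 model, 22 members passed in mdx and 20 in DMD-Null, and with DESeq2 25 and 20, in place of 14 and 12. With the replicate number as a block, 7 and 4 passed. Deviations of same-numbered libraries from their group means correlated at -0.579 to 0.312, and most libraries did not correlate best with their own number. With 4 libraries per group, and WT 1 and WT 3 apart from the other WT libraries, these correlations cannot show whether the numbers pair libraries. With 1 replicate left out the counts were 7 to 21 and 6 to 17. Of the partner genes, DESeq2 called 13 in each mutant, all 12 libraries in 1 model 11 in DMD-Null, no filter 3 in DMD-Null and the replicate block 2 in each, in place of 8 and 6, and with 1 replicate left out 1 to 16 and 2 to 12 passed. With the replicate block the DMD-Null calls of Kcnk6 and Kcnu1 ended (edgeR adjusted p = 0.0626 and 0.0632). With no filter, edgeR ended 7 calls on members (edgeR adjusted p = 0.0523 to 0.0689), and limma on log2(FPKM + 1) ended, among others, those of Kcnn1 and Kcnn2 in DMD-Null and of Kcnj11, Kcnmb1 and Kcnn2 in mdx (limma adjusted p = 0.0711 to 0.25). Over all genes, 3206 passed in mdx and 1875 in DMD-Null, against 5079 and 4146 with all 12 libraries, 5468 and 3963 with DESeq2, 1463 and 527 with the block and 6003 and 4251 with limma on log2(FPKM + 1). Limma on that scale split the members that passed into 12 higher and 4 lower in mdx and 9 higher and 3 lower in DMD-Null. No named member or partner gene that passed changed its direction in any alternative. Between the mutants 0 members passed in each alternative. Members near the minimum of 100 counts could show only large changes at this depth. The cause of these differences was not tested.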

Other observations

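Some members that did not pass have a place outside muscle. Kcnj15, an inward rectifier known from kidney, averaged 0.327 ± 0.203 CPM in the WT libraries, 0.885 ± 0.319 in mdx and 0.688 ± 0.181 in DMD-Null (mean ± SD, n = 4), and its log2 fold changes of 1.45 and 1.07 did not pass (edgeR adjusted p = 0.078 and 0.19). Kcnv2, a silent subunit known from photoreceptors, averaged 0.395 ± 0.295, 0.0798 ± 0.0554 and 0.116 ± 0.0943 CPM, with WT 1 at 0 and the highest WT library at 0.715, and did not pass either (edgeR adjusted p = 0.155 and 0.301). Kcnab1, a beta subunit of Kv1 channels, was lower in all 8 mutant libraries than in any WT library, at 5.52 ± 0.376 CPM in the WT libraries, 3.42 ± 0.752 in mdx and 3.27 ± 1.06 in DMD-Null, and missed the threshold (edgeR adjusted p = 0.0582 and 0.082). Kcnk10, a leak channel, had reads in every WT and mdx library and in DMD-Null 2 and DMD-Null 4.

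Schwann cell markers summed to 175 to 258 CPM in WT, 141 to 155 in mdx and 139 to 178 among the DMD-Null libraries, with 2 of 5 genes lower in mdx and 0 in DMD-Null by edgeR, where 4 had an unadjusted p under 0.05. Pmp22, 1 of these 4, lay above 0 without passing, at 0.56 in mdx and 0.65 in DMD-Null (edgeR adjusted p = 0.109 and 0.0998). The other 4 Schwann cell markers lay below 0 in both mutants. Endothelial markers summed to 283 to 316, 229 to 292 and 243 to 273 CPM. By edgeR 1 of 5, Vwf, was lower in mdx and 0 in DMD-Null, where 2 had an unadjusted p under 0.05. Vwf weighed on these sums, with group means of 72.7 (WT), 22.1 (mdx) and 26.0 (DMD-Null), and WT 1 and WT 3 highest at 103 and 110. Pecam1, Cdh5 and Tek had log2 fold changes above 0 in both mutants, and Kdr and Vwf below. The medians of the 5 were 0.16 and 0.15. Without WT 1 and WT 3 all 5 lay below 0, with medians of -0.12 and -0.29.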
